A study of Mus musculus with 6 samples.

Results

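Interferon-stimulated genes were examined in M-MDSCs, the monocytic subset of myeloid-derived suppressor cells, a population of immature myeloid cells that restrains T cells. The 47 genes were chosen by name as well-known interferon targets, with no measured value in the rule, and each matched 1 row among the 34745 genes of the count table. RNA was sequenced from 3 libraries per group, all of the C57BL/6 strain. WT cells carried intact mTOR, and the paper states that its WT mice were purchased. The mTOR-/- cells came from Lyz-mTOR mice, in which mTOR flox/flox alleles are cut by a Cre recombinase driven from the lysozyme locus, so that deletion occurs in myeloid cells that have expressed lysozyme and not in every cell of the marrow. WT mice are not described as littermates or as carrying Cre or flox alleles. The Cre insertion, flox alleles, mouse source and mTOR loss therefore cannot be told apart between the groups. Cells of both groups were induced from bone marrow in culture with the growth factors GM-CSF and IL-6 and then sorted. The methods name no added interferon. The age of the mice, and whether a library held cells of 1 mouse or several, are not given in the sources used here beyond an n of 3 for the mice, so p-values measure only the spread between these libraries, which may be technical.

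Interferons are cytokines that cells release when they sense viral or other foreign nucleic acid. Type I interferons bind the receptor made of Ifnar1 and Ifnar2, whose kinases Jak1 and Tyk2 activate Stat2, which acts together with Irf9 on an interferon-stimulated response element (ISRE) in the promoters of target genes. Type II interferon, interferon gamma, acts through the receptor made of Ifngr1 and Ifngr2 and leads to binding at a gamma-activated site (GAS). The targets encode antiviral effectors, guanylate-binding and immunity-related GTPases that attack intracellular microbes, and chemokines that draw T cells, and many myeloid cells hold a low level of these transcripts without added interferon.

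The promoters of the listed genes carried the letters of these elements in many cases. RefSeq promoters (GRCm38.p6, 250 bases before to 50 bases after the start) matched 38 of the 47 genes. The ISRE letters GAAANNGAAA, or TTTCNNTTTC on the opposite strand, were found in 22 of the 38, which is 57.9%, against 3.99% of 27025 genes with a promoter in the same table. The GAS letters TTCNNNGAA, which read the same on either strand, were found in 13 of 38, which is 34.2%, against 9.55%. Matches can overlap each other in tandem repeats. A match is a stretch of letters and not a measured binding site. The stretches printed here belong to a chemokine and an antiviral membrane protein whose counts differed between the groups, the ubiquitin-like Isg15, the transcription factor Stat2, the deoxynucleotide hydrolase Samhd1, and Ifit1 and Ifit3, which were almost without counts. Capitals mark 1 match in each stretch, lower-case letters can belong to further matches, and each stretch reads along the gene's own strand.
Cxcl10, ISRE: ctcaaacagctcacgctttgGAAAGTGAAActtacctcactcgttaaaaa
Bst2, ISRE: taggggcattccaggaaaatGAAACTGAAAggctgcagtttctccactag
Bst2, GAS: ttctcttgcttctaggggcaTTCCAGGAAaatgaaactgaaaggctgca
Isg15, ISRE: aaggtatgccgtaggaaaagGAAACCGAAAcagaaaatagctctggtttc
Stat2, ISRE: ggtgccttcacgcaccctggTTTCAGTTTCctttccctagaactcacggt
Samhd1, GAS: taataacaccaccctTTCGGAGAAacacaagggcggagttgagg
Ifit1, ISRE: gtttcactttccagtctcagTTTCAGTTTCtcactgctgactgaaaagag
Ifit3, ISRE: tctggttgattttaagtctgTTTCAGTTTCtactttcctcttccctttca
The Cxcl10 stretch lies at chr5:92349073-92349122 on the reverse strand, with the match starting 213 bases before the annotated start of transcription. The Bst2 stretches, chr8:71537567-71537616 and chr8:71537580-71537628 on the reverse strand, overlap, and their capitals start 124 and 136 bases before that start. A further Bst2 ISRE match, starting 130 bases before it, overlaps the capitals of the ISRE stretch. Isg15, at chr4:156200861-156200910 on the reverse strand, has its match 72 bases before the start, inside a run of 3 overlapping matches. The Stat2 stretch is chr10:128270256-128270305 on the forward strand. Samhd1 had GAS letters at chr2:157135303-157135346 on the reverse strand and no ISRE letters in the window. The promoters of Ifit1 (stretch at chr19:34640784-34640833) and Ifit3 (chr19:34583387-34583436), both on the forward strand, each held 2 ISRE matches, of which 1 is in capitals. The other Ifit1 match, 104 bases before the start, lies in the lower-case part of its stretch. The table has no entry under the names Dhx58, Gbp4, Iigp1, Mx1, Mx2, Oas2, Rtp4, Usp18 or Zbp1.

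Counts on genes totalled 12317507 to 12903191 per library in the mTOR-/- group and 14066578 to 14768126 in the WT group, so 3 counts correspond to 0.229 to 0.244 and 0.205 to 0.213 CPM (the count relative to the library total, scaled by edgeR's TMM factors). These limits cover counting error only. Mtor itself had 883, 983 and 908 counts for mTOR-/- and 980, 875 and 929 for WT (log2 fold change 0.15, SE 0.11, edgeR adjusted p = 0.442), so its total count was no check of the deletion, and the directions given here rest on the labels. Lyz2, whose locus carries the Cre, was lower in the mTOR-/- libraries (log2 fold change -1.68, edgeR adjusted p = 0.0026). The library of mTOR-/- replicate 3 stood apart, with 13889 genes detected against 14709 to 15120 in the others, and counts of calls are therefore also given without it.

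Cell type markers were summed in each library, in CPM. The monocyte list (7 of 7 rows tested) summed to 1607 to 1749 in the mTOR-/- group and 1632 to 1829 in the WT group. An edgeR adjusted p under 0.05 was found for Csf1r and F13a1 (higher) and Ly6c2 (lower). F13a1 changed at least 2-fold, and Ly6c2 fell just short of that (log2 fold change -0.999). Ly6c2 levels were 72.6 to 104 CPM for mTOR-/- and 115 to 225 CPM for WT. Neutrophil markers summed to 1725 to 2133 and 1543 to 1858 (6 of 6 tested). Of these, Ly6g (higher) and Ltf and Ngp (lower) had an edgeR adjusted p under 0.05, with Ngp changing by less than 2-fold. Ly6g stood at 10.7 to 15.1 CPM for mTOR-/- and 0.852 to 5.05 CPM for WT (log2 fold change 2.27). The paper defines M-MDSCs by surface markers, as Ly6G negative and Ly6C high. Relative to WT, Ly6g RNA was higher and Ly6c2 RNA lower in the mTOR-/- libraries. Whether the sorted cells differed in these proteins was not tested here. The mast cell and basophil list summed to 239 to 295 in the mTOR-/- libraries and 876 to 1055 in the WT libraries, with 3 of its 6 markers down-regulated DEGs (Cpa3, Kit and Mcpt8). Cpa3 made up the largest part of the WT sums, at 631 to 768 CPM, against 111 to 154 CPM in the mTOR-/- libraries. Ms4a2 and Prss34 (log2 fold changes -0.65 and -0.57) and Fcer1a (0.45) did not pass, and their groups overlapped. Among cells known for interferon production, plasmacytoid dendritic cell markers summed to 77.3 to 115 and 95.1 to 104 (2 of 6 tested), with the defining markers Siglech and Klk1 at 0 in every library. Nearly all of that sum came from Cox6a2 (52.5 to 76.1 CPM over the 6 libraries) and Tcf4 (21.3 to 39.6 CPM). Ccr9 and Ly6d reached at most 0.611 and 0.136 CPM. The sum was 136 to 208 against 54.7 to 129 for conventional dendritic cell markers (4 of 6 tested, none called) and 535 to 656 against 661 to 744 for macrophage markers (4 of 6 tested, none called). Of the macrophage markers, Adgre1 was lower (401 to 532 against 563 to 642 CPM) and Vcam1 higher (116 to 132 against 69.3 to 99.5 CPM). The largest contributor was Itgam for monocytes, Mmp8 for neutrophils, Itgax for conventional dendritic cells and Adgre1 for macrophages. T and NK cell markers summed to 0 to 0.244 against 0.498 to 0.819, with Cd3e, Cd4, Cd8a and Ncr1 at 0 in every library. B cell markers gave 3.32 to 6.92 against 2.27 to 3.91, and erythroid markers 2.44 to 3.36 against 6.67 to 10.7. Fewer cells of a type and less RNA per cell cannot be told apart in such bulk libraries, and the part of these differences in the results below was not tested.

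Levels of the 47 genes, as CPM per kilobase of exon averaged over the 6 libraries, spanned several orders of magnitude. Only 4 genes were above 100, 6 lay between 10 and 100, 19 between 1 and 10, and 18 below 1, of which Cxcl9 and Iigp1 had no count in any library. The 4 highest were the IFITM genes, small membrane proteins that block viral entry: Ifitm1 at 720, Ifitm3 at 418, Ifitm6 at 226 and Ifitm2 at 164 CPM per kilobase. In this order every library of each of these 4 lay above every library of the next gene. Bst2 (83.5) and Slfn2 (79.1) followed and overlapped each other, and Slfn1 (48.0) and Samhd1 (27.2) overlapped as well. The classical antiviral genes were low: Isg15 stood at 4.15, Rsad2 at 0.315 and Ifit1 at 0.0681 CPM per kilobase. From Ifi35 (14.97) downwards neighbours in the order overlapped in their libraries, except Ddx58 (3.98) over Irgm1 (2.80).

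**Figure D1:**
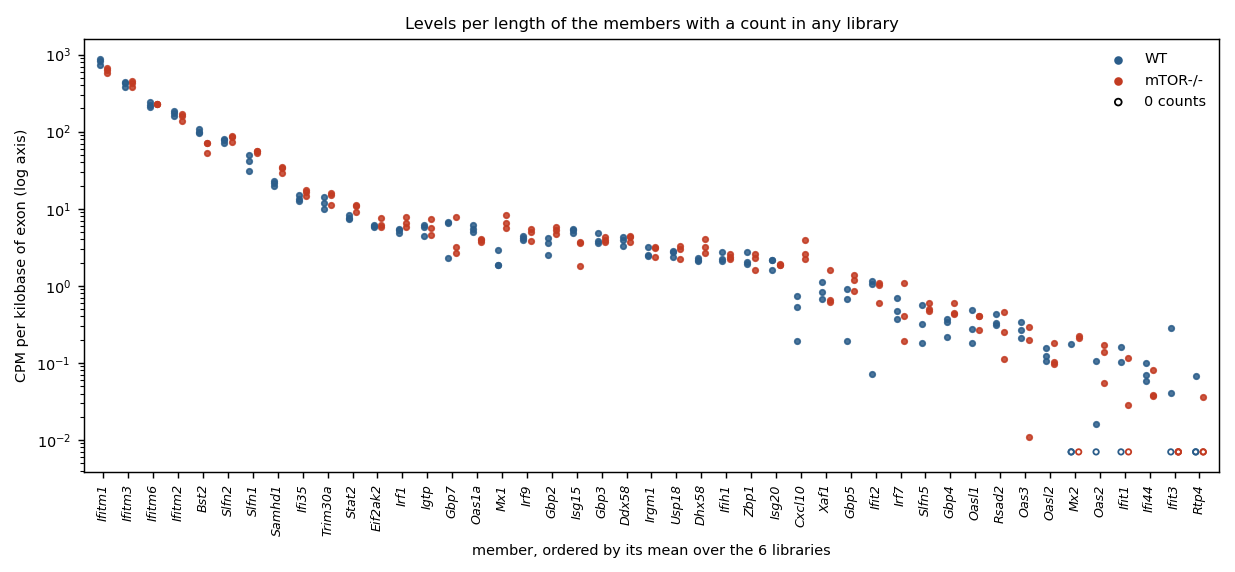
Levels of the 45 listed genes with a count in any library, in CPM per kilobase of exon on a log axis, ordered by the mean over 6 libraries; each point is 1 library, and open points mark 0 counts. The 4 IFITM genes lie above 100, and 16 genes with counts lie below 1.

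The low-count filter of edgeR kept 39 of the 47 genes. Of these, 27 were higher and 12 lower in mTOR-/- M-MDSCs, beside 6344 higher and 6193 lower among all tested genes. DEGs were taken as genes that differed at least 2-fold and had an adjusted p under 0.05 in edgeR's quasi-likelihood test over all 12537 tested genes. By that rule 2 of the 39 (5.13%), Mx1 and Cxcl10, were up-regulated, where 1.04% of all tested genes were, and 0 were down-regulated, where 0.654% of all tested genes were. Without mTOR-/- replicate 3, or without any 1 of the WT libraries, the count was 1, Mx1. At any fold the adjusted p passed for 3 higher genes (7.69%, Samhd1 added) and 1 lower gene (2.56%, Bst2), beside 2.18% and 1.87% of all tested genes. An unadjusted p under 0.05 was reached by 11 of the 39 (28.2%), against 21.2% of all tested genes.

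The fold changes were as a rule small. The median log2 fold change of the 39 genes was 0.11 and that of all tested genes 0.0051, and the median size without sign was 0.225 and 0.224. Values ran from -0.78 for Isg15 to 2.57 for Cxcl10. The 95% interval of the fold change lay wholly within a fold of 2 in either direction for 23 of the 39 genes (59.0%), beside 71.4% of all tested genes. The 3 CPM values of 1 group all lay above the 3 of the other for 13 of the 39. In 9 (23.1%, against 14.5% of all genes tested) the mTOR-/- values were the higher ones: Stat2, Irf1, Mx1, Dhx58, Samhd1, Gbp2, Gbp4, Cxcl10 and Slfn1. In 4 (10.3%, against 13.9%) they were the lower ones: Isg15, Ifitm1, Oas1a and Bst2.

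**Figure D2:**
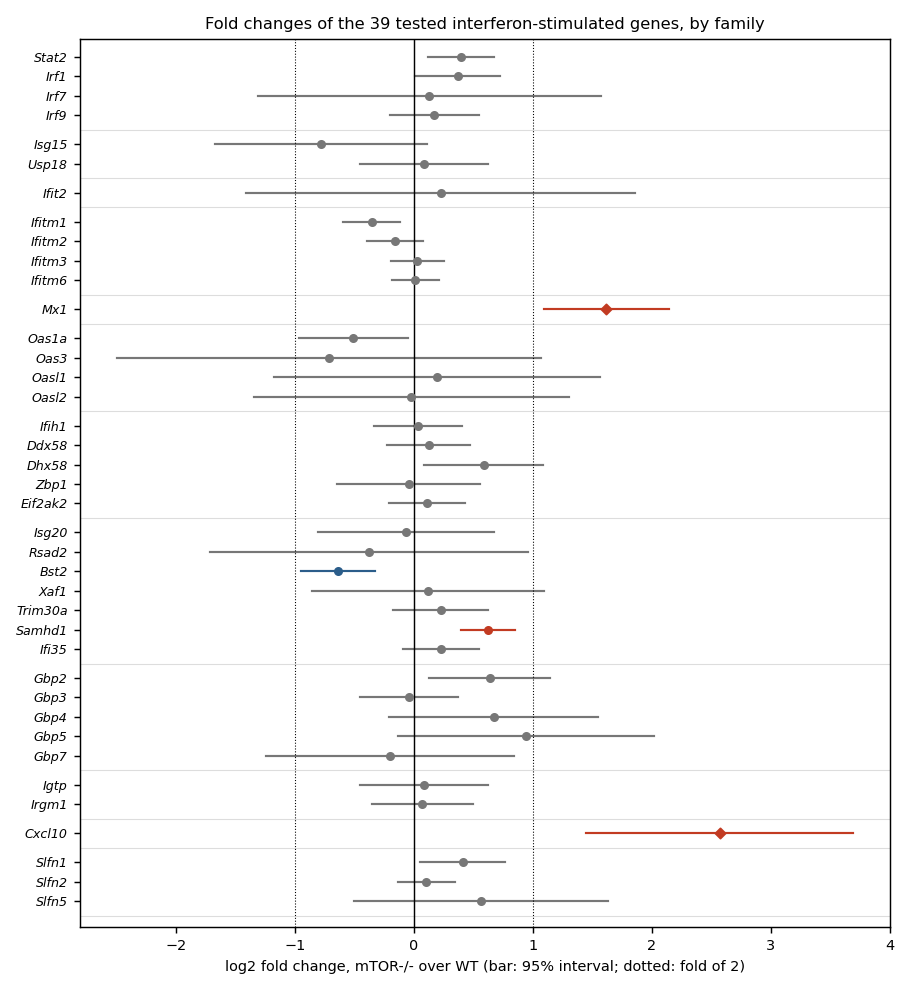
Log2 fold changes of the 39 tested genes, mTOR-/- over WT, grouped by family, with 95% intervals from the edgeR fit; dotted lines mark a fold of 2. Red and blue mark an adjusted p under 0.05 with a higher or lower value, and diamonds mark the 2 DEGs, Mx1 at 1.62 and Cxcl10 at 2.57.

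Cxcl10 showed the largest change among the 39 genes. It encodes a chemokine that attracts T cells bearing the receptor CXCR3 and lies on chromosome 5 from 92346638 to 92348889 (mm10, ENSMUSG00000034855). It had 61, 76 and 115 counts for mTOR-/- and 17, 24 and 6 for WT. Every mTOR-/- library was above every WT library. The mean level was 6.54 ± 2.0 CPM in mTOR-/- cells and 1.09 ± 0.614 in WT cells (SD, n = 3), a 5.94-fold difference in the fit (log2 fold change 2.57, SE 0.50, 95% interval 1.45 to 3.69, edgeR adjusted p = 0.0243). The counts are small, and the call was lost when certain libraries were left out: edgeR's adjusted p was 0.0558 without mTOR-/- replicate 3, 0.0926 without WT replicate 1, 0.0513 without WT replicate 2 and 0.0635 without WT replicate 3, while the log2 fold change stayed at 2.19 or more. Art3, annotated across Cxcl10 on the opposite strand, had 1 count in all 6 libraries together. Its neighbour Cxcl9, a ligand of the same receptor that responds mainly to interferon gamma, had 0 counts in all libraries, which allows at most 0.244 CPM in any of them.

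Mx1 was the other DEG. Its product is a dynamin-like GTPase that blocks influenza viruses, and in C57BL/6 mice the gene carries a deletion that leaves no functional protein, so the counts follow a transcript without a working product. Mx1 (chromosome 16, 97447035 to 97462907, ENSMUSG00000000386) had 302, 275 and 412 counts for mTOR-/- and 100, 161 and 99 for WT. The lowest mTOR-/- library, at 21.2 CPM, stood above the highest WT library, at 10.99 CPM. Means were 25.8 ± 5.24 and 8.38 ± 2.26 CPM (SD, n = 3), a 3.07-fold difference (log2 fold change 1.62, SE 0.23, 95% interval 1.09 to 2.14, edgeR adjusted p = 0.0064). This call held with each library left out in turn, at log2 fold changes of 1.44 to 1.86. Mx2, next to it and annotated as a polymorphic pseudogene, had 10, 10 and 0 counts against 0, 0 and 9 and was not tested.

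Samhd1, a nuclear enzyme that breaks down deoxynucleotides and so starves retroviruses of them, was higher by less than 2-fold. Counts were 3969, 3497 and 4071 for mTOR-/- and 2562, 2869 and 2934 for WT, on chromosome 2 from 157097533 to 157135265. All mTOR-/- values were above all WT values, with means of 301 ± 28.1 and 195 ± 13.4 CPM (SD, n = 3). The log2 fold change was 0.62 (SE 0.10, 95% interval 0.40 to 0.85, edgeR adjusted p = 0.0116). Without WT replicate 1 or WT replicate 2 the adjusted p rose to 0.0707 or 0.0582 at nearly the same fold change.

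Bst2, or tetherin, which holds budding virus at the cell membrane, moved the other way. It lies on chromosome 8 from 71534264 to 71537437 and had 802, 835 and 622 counts for mTOR-/- and 1270, 1270 and 1385 for WT. Each WT value exceeded each mTOR-/- value. Means of 59.1 ± 10.01 and 91.8 ± 6.10 CPM (SD, n = 3) gave a log2 fold change of -0.64 (SE 0.14, 95% interval -0.95 to -0.33, edgeR adjusted p = 0.0368). The adjusted p rose above the threshold without mTOR-/- replicate 1 (0.0644) and without WT replicate 1, 2 or 3 (0.115, 0.0916 and 0.162). Among the 9 antiviral effectors in this group, Samhd1 and Bst2 passed, 5 did not and 2 were too low to test. Those 5 are the exonuclease Isg20, viperin (Rsad2), Xaf1, Trim30a and Ifi35, with log2 fold changes between -0.37 and 0.23. Ifi44 (6, 3 and 3 against 6, 9 and 5 counts) and Rtp4 (0, 0 and 1 against 2, 0 and 0) were not tested.

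**Figure D3:**
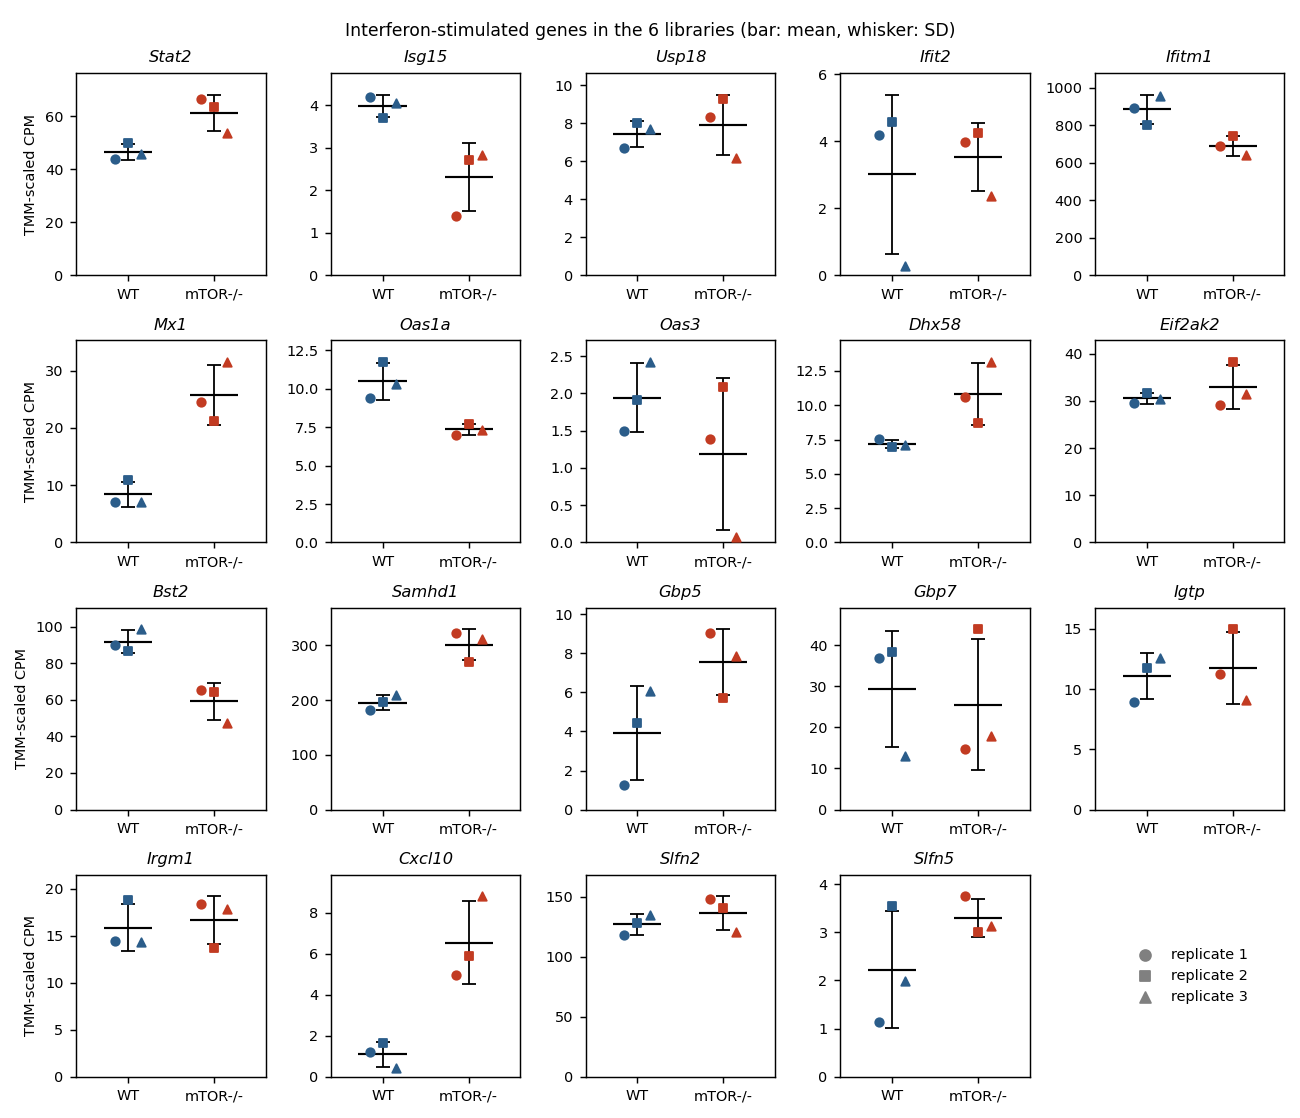
TMM-scaled CPM of 19 interferon-stimulated genes in each of the 6 libraries, 1 panel per gene with its own axis from 0; horizontal bars are group means, whiskers the SD, and symbols the replicate number. Mx1, Cxcl10 and Samhd1 sit higher and Bst2 lower in all mTOR-/- libraries, while Gbp7, Ifit2 and Oas3 hold a library far from its group.

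The factors that carry the interferon signal to the nucleus did not pass the test. Stat2, the subunit that gives the type I complex its activating domain, had 818, 825 and 701 counts for mTOR-/- and 620, 731 and 641 for WT. These groups did not overlap in CPM (61.3 ± 6.84 and 46.5 ± 3.03, SD, n = 3), and the log2 fold change of 0.40 (SE 0.12) had an edgeR adjusted p of 0.110. Irf1, which drives targets of interferon gamma, gave 0.37 (edgeR adjusted p = 0.223), and Irf9, which binds the ISRE, gave 0.17. Irf7, the factor that amplifies interferon production, varied more within than between groups, with 9, 20 and 54 counts for mTOR-/- and 20, 39 and 25 for WT.

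Isg15 and Usp18 belong to a ubiquitin-like system in which Isg15 is attached to proteins and Usp18 removes it and also damps the type I receptor. Isg15 had 17, 35 and 37 counts for mTOR-/- and 59, 54 and 57 for WT, without overlap. Its log2 fold change of -0.78 (SE 0.40, 95% interval -1.67 to 0.11) was the lowest of the 39 genes and did not pass (edgeR adjusted p = 0.293). Usp18 had 102, 120 and 81 against 94, 117 and 108 counts, with overlapping groups and a log2 fold change of 0.09 (SE 0.24).

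Transcripts of the IFIT proteins, which bind foreign RNA ends, were scarce. Ifit1 had 0, 4 and 1 counts for mTOR-/- and 0, 4 and 6 for WT, and Ifit3 had 0, 0 and 0 against 1, 0 and 7. Neither was tested. Ifit2 had 49, 55 and 31 against 59, 67 and 4 counts, so WT replicate 3 stood 16.1-fold below the highest library of its group. The log2 fold change of 0.23 (SE 0.73) turns to -0.31 without that library. The 3 genes lie within 99.3 kb of chromosome 19.

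The 4 IFITM genes, within 62.1 kb of chromosome 7, held more than any other family. Together they gave 53.5% to 56.2% of the summed CPM of the 47 genes in the mTOR-/- libraries and 60.4% to 64.1% in the WT libraries. These shares use CPM not divided by exon length, so long genes weigh more in them than in the levels per kilobase. Ifitm1 had 8472, 9647 and 8365 counts for mTOR-/- and 12595, 11766 and 13453 for WT, with no overlap. Its log2 fold change was -0.36 (SE 0.11, 95% interval -0.59 to -0.12), and the edgeR adjusted p of 0.0961 missed the threshold, which it passed with DESeq2 (adjusted p = 0.0213). Ifitm2, Ifitm3 and Ifitm6 had log2 fold changes of -0.16, 0.03 and 0.01, and the 95% intervals of all 4 genes lay within a fold of 2.

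OAS enzymes make a messenger that activates the ribonuclease RNase L when they meet double-stranded RNA. Oas1a had 86, 100 and 96 counts for mTOR-/- and 132, 172 and 145 for WT. The groups did not overlap, and the log2 fold change of -0.51 (SE 0.20) had an edgeR adjusted p of 0.193. Close copies of Oas1a (Oas1b, Oas1c and Oas1g) are listed as separate genes, and the way the counting split their reads is not given in the sources used here. Oas3 had 17, 27 and 1 against 21, 28 and 34 counts, with mTOR-/- replicate 3 standing 27.2-fold below the highest of its group, and its log2 fold change of -0.71 became -0.16 without that library and -1.42 without mTOR-/- replicate 2. The OAS-like Oasl1 and Oasl2 had 7 to 18 counts per library, and Oas2, not tested, had 3, 8 and 10 against 1, 7 and 0.

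None of the 5 sensors of viral nucleic acid passed the test. Dhx58 (LGP2), which modulates the other RNA helicase sensors, had 130, 113 and 172 counts for mTOR-/- and 106, 102 and 100 for WT. All mTOR-/- values were the higher ones, and the log2 fold change of 0.59 (SE 0.22, 95% interval 0.08 to 1.09) had an edgeR adjusted p of 0.176. Eif2ak2 (PKR), the kinase that halts translation on double-stranded RNA, had 359, 496 and 412 against 415, 464 and 428 counts, and the groups overlapped (log2 fold change 0.11, SE 0.14). Ddx58 (RIG-I), Ifih1 (MDA5) and the Z-form nucleic acid sensor Zbp1 had log2 fold changes of 0.12, 0.04 and -0.04, and the 95% intervals of Ddx58, Ifih1, Zbp1 and Eif2ak2 lay within a fold of 2.

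Guanylate-binding proteins assemble on the vacuoles of intracellular microbes and are induced mainly by interferon gamma. Gbp5 had 111, 74 and 103 counts for mTOR-/- and 18, 65 and 85 for WT. The groups overlapped through mTOR-/- replicate 2 and WT replicate 3, and the log2 fold change of 0.94 (SE 0.48) did not pass (edgeR adjusted p = 0.295). The log2 fold change was 0.51 without WT replicate 1. Gbp2 and Gbp4 were higher in every mTOR-/- library, at log2 fold changes of 0.64 and 0.67, and did not pass either (edgeR adjusted p = 0.152 and 0.360). Gbp7 had 182, 569 and 235 counts for mTOR-/- and 518, 560 and 183 for WT. It fell into high and low libraries within each group, 2.96-fold apart in the mTOR-/- group and 2.93-fold apart in the WT group, and the log2 fold change was -0.20 (SE 0.46). Gbp3, between Gbp7 and Gbp2 in the 144 kb cluster on chromosome 3, showed no such split (log2 fold change -0.04, SE 0.18). Gbp4 overlaps Gbp8 and Gbp9 on its own strand, so its counts are less certain.

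Immunity-related GTPases act on the same vacuoles, and neither of the 2 tested passed. Igtp had 138, 194 and 119 counts for mTOR-/- and 126, 172 and 177 for WT (log2 fold change 0.08, SE 0.24). Irgm1 had 225, 178 and 234 against 204, 275 and 201 (0.07, SE 0.19). Groups overlapped for both genes, and Igtp shares sequence of its locus with Irgm2 on the same strand. Iigp1 had no counts.

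Schlafen genes, linked to growth control in T cells and myeloid cells, lie within 171 kb of chromosome 11. Slfn2, the highest of the 3, had 1814, 1820 and 1579 counts for mTOR-/- and 1657, 1880 and 1893 for WT, with overlapping groups and a log2 fold change of 0.10 (SE 0.11, 95% interval -0.14 to 0.34). Slfn5 had 46, 39 and 41 against 16, 52 and 28 counts (log2 fold change 0.56, SE 0.47). Slfn1 was higher in all mTOR-/- libraries, at 102 ± 3.55 against 76.9 ± 17.7 CPM (SD, n = 3), and did not pass (log2 fold change 0.41, edgeR adjusted p = 0.180).

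The libraries were also compared across the 39 genes together, on the log2 CPM scale relative to each gene's mean over the 6 libraries. The median over the genes was 0.14, 0.14 and -0.0022 in mTOR-/- replicates 1, 2 and 3 and -0.10, 0.03 and -0.16 in WT replicates 1, 2 and 3, so mTOR-/- replicate 3 lay between the values of the WT libraries. Genes above their own mean numbered 25, 24 and 19 of 39 for mTOR-/- and 13, 22 and 15 for WT, where the share over all tested genes was 50.9% to 52.9%. The summed CPM of the 47 genes overlapped between the groups, at 2236 to 2422 and 2275 to 2478. Genes with ISRE letters in the promoter (20 tested) had a median log2 fold change of 0.05, with 12 higher and 8 lower, and those without (14 tested) a median of 0.15, with 11 higher and 3 lower. These medians are descriptions and were not compared by a test.

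**Figure D4:**
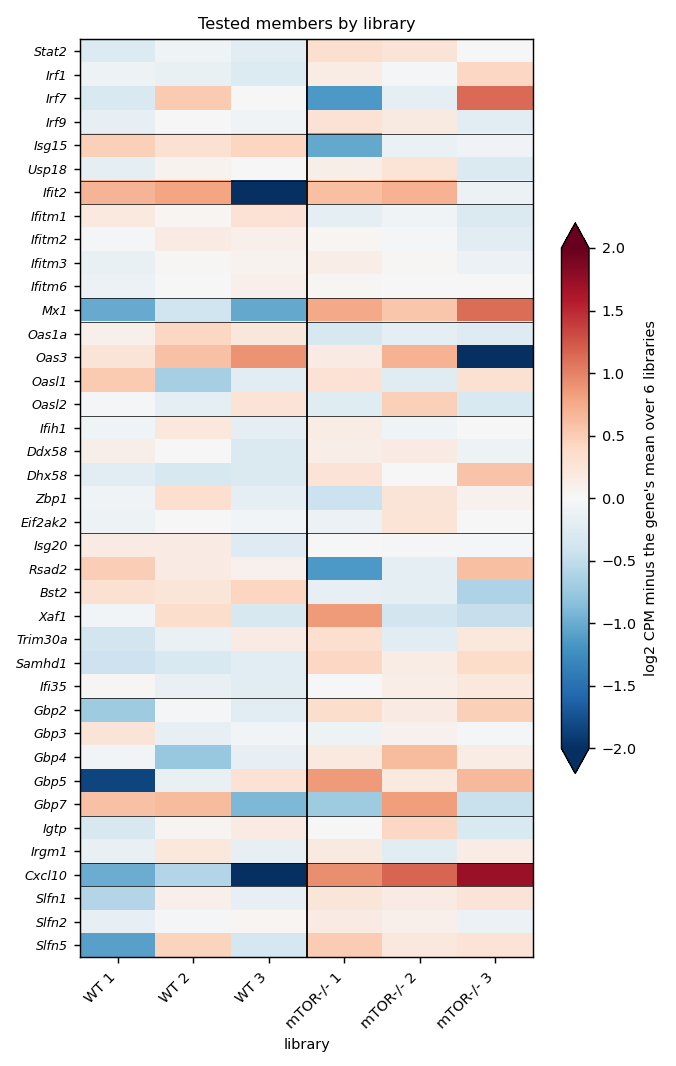
Log2 CPM of the 39 tested genes in each library minus the gene's mean over the 6 libraries, with families separated by lines and colours limited at 2 in either direction. Cxcl10 and Mx1 are red in all mTOR-/- libraries and blue in all WT libraries, whereas most rows mix both colours within a group.

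The rest of the interferon pathway was read from the same fit, with a list of 92 further symbols of which 91 matched, in 92 rows because Gbp6 has 2 identifiers. The test covered 71 of these rows, with a median log2 fold change of 0.06. Of them 40 had a higher and 31 a lower mTOR-/- value, beside 6344 and 6193 of all tested genes. Of the 71, 0 were up-regulated DEGs and 2, Ly6a and Gbp6, were down-regulated, where 1.04% and 0.654% of all tested genes were. At any fold 3 higher and 2 lower rows of the 71 passed, beside 2.18% and 1.87% of all tested genes. None of the 9 interferon genes listed was tested. The 8 others had 0 counts everywhere, Ifnb1 included, and Ifng had 7 counts in mTOR-/- replicate 1 and 0 in the other libraries.

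Interferon receptors had counts in every library, and none of the 6 passed the test. The type I receptor gene Ifnar1 had 1319, 1242 and 1276 counts for mTOR-/- and 1292, 1326 and 1249 for WT, without overlap in CPM (log2 fold change 0.15, SE 0.09). Its partner Ifnar2 had 1066, 1159 and 974 against 1216, 1306 and 1173 counts, with overlapping groups (-0.05, SE 0.11). For interferon gamma, Ifngr1 had 1461, 1592 and 1679 against 1544, 1343 and 1535 counts, without overlap in CPM (0.25, SE 0.10, edgeR adjusted p = 0.202). Ifngr2, which overlapped, had 1624, 1479 and 1601 against 1699, 1849 and 1697 counts (0.0043, SE 0.09), and the 95% intervals of these 4 genes lay between -0.28 and 0.49. The largest difference of the 6 was that of Ifnlr1, a receptor chain for interferon lambda. It had 51, 60 and 80 counts for mTOR-/- and 45, 40 and 34 for WT, with every mTOR-/- library the higher (0.83, SE 0.34, 95% interval 0.08 to 1.59, edgeR adjusted p = 0.198). Il10rb, the partner chain of Ifnlr1, had 1085, 784 and 640 against 712, 914 and 951 counts, with overlapping groups (0.13, SE 0.21).

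Tyk2, the kinase bound to Ifnar1, was higher in all mTOR-/- libraries, with 2282, 2427 and 3119 counts against 1916, 2143 and 2036 (log2 fold change 0.52, SE 0.11, edgeR adjusted p = 0.0386). Without mTOR-/- replicate 1 or WT replicate 1, 2 or 3 its edgeR adjusted p was 0.0630, 0.162, 0.112 or 0.152. Irf4, a factor of lymphoid and myeloid differentiation, had 2904, 2967 and 3026 against 2527, 2668 and 2378 counts (0.39, SE 0.08, edgeR adjusted p = 0.0325), and the groups did not overlap. It passed without mTOR-/- replicate 3 and missed the threshold in the 5 other leave-one-out fits, with edgeR adjusted p of 0.0527 (mTOR-/- replicate 2) to 0.181 (WT replicate 3). Ikbke, a kinase that activates Irf3 and Irf7 downstream of viral sensors, had 2926, 2224 and 3993 against 1597, 2216 and 1875 counts (0.84, SE 0.19, edgeR adjusted p = 0.0444). Its lowest mTOR-/- library stood above the highest WT library in CPM. It passed without mTOR-/- replicate 2 and missed the threshold in the other 5 fits, with edgeR adjusted p of 0.0771 (mTOR-/- replicate 3) to 0.170 (WT replicate 1).

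Of the interferon-induced genes outside the 47, Ly6a (Sca-1, a surface protein of progenitor cells) had 77, 70 and 90 against 243, 198 and 268 counts and was down-regulated (log2 fold change -1.42, SE 0.21, edgeR adjusted p = 0.0072), a call that held with each library left out. Gbp6 under the identifier ENSMUSG00000104713 had 28, 58 and 41 against 241, 238 and 87 counts (-1.995, SE 0.41, edgeR adjusted p = 0.0320), and the call was lost without mTOR-/- replicate 1 or 3 or WT replicate 1 or 2 (edgeR adjusted p = 0.0961, 0.0728, 0.126 and 0.110). The other Gbp6 identifier, ENSMUSG00000079362, covers the same stretch of chromosome 5 and did not pass (-0.38, SE 0.48), so the split of reads between them is uncertain.

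**Figure D5:**
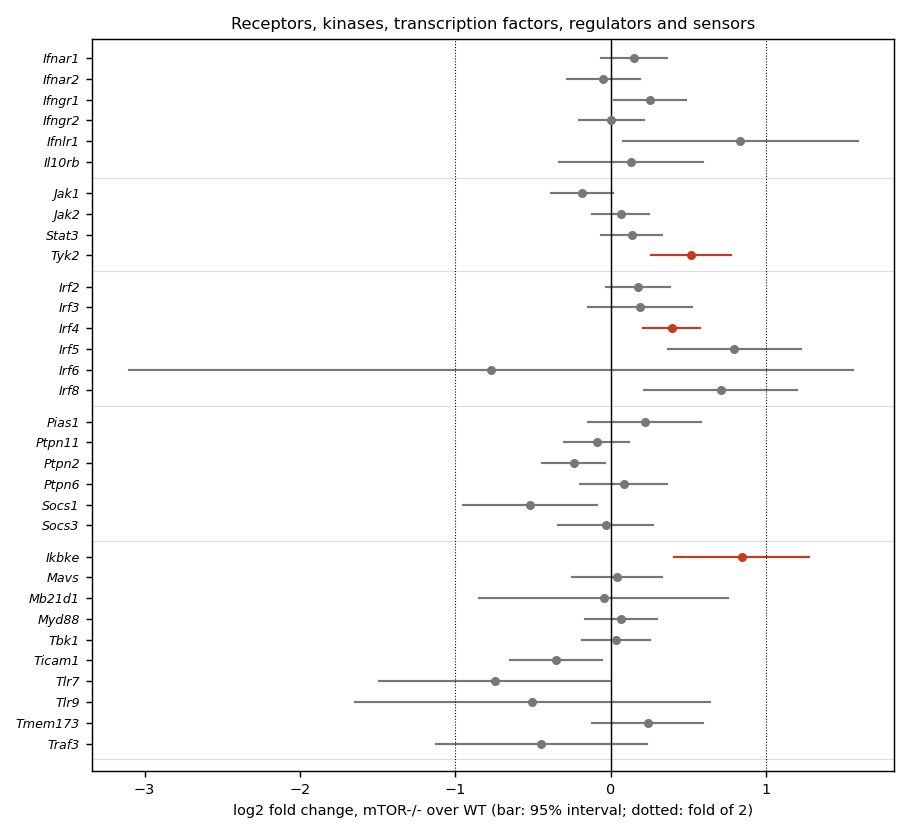
Log2 fold changes, mTOR-/- over WT, of tested receptors, signalling genes, interferon regulatory factors, negative regulators and sensing genes that are not among the 47, with 95% intervals from the edgeR fit; dotted lines mark a fold of 2. Tyk2 at 0.52, Irf4 at 0.39 and Ikbke at 0.84, in red, had an adjusted p under 0.05.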

How the data were processed

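M-MDSC RNA from 3 mTOR-/- and 3 WT libraries was grouped by the sample titles. The count table deposited by the authors holds whole numbers per gene, not normalized, which the paper's methods attribute to Bowtie2 alignment to mm10 and HTSeq. The submitters' processing notes instead list HISAT2 2.0.4 and StringTie 1.3.0 with GRCm38.p4 and mm9. Annotation release and strand setting are not given in the sources used here, so antisense and overlapping genes may share reads. FPKM values were deposited by the authors as well. Their implied gene lengths equalled the summed distinct exons of GENCODE M21 within 1% for 69.2% of 12496 genes, which counts overlapping exons repeatedly, so levels were computed here as CPM per kilobase of merged GENCODE M21 exon. Of the columns with per-sample values 24 repeat these in other tables and were not used, nor were the authors' fold changes and p-values in those tables.

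Counts were analysed with R 4.3.3 and edgeR 4.0.16: filterByExpr (minimum count 10, minimum total 15; 12537 of 34745 genes kept), TMM factors of 0.986 to 1.01, and the quasi-likelihood F test, with p-values adjusted over all tested genes by the Benjamini-Hochberg method. DEGs needed a fold change of at least 2 and an adjusted p under 0.05, the thresholds of the study's methods. The biological coefficient of variation was 19.0%. Intervals of 95% use edgeR's standard errors. The method was first tested on simulated data. That simulation gave all genes the same dispersion and changed only well-counted genes, each by more than 2-fold. It therefore does not cover genes with few counts or smaller changes. Exact permutation of 3 against 3 libraries cannot go below p = 0.1 and was not used. Log2 CPM used a prior count of 2. The 47 genes, the role groups, the pathway and marker lists, and the tests were chosen with earlier results of these data known, although the rule for the 47 genes uses names alone. Values in every library are given for genes past the adjusted p, for the gene with the largest change and the most abundant tested gene of each role group, for genes too low to test, and for receptors. The counts for the pathway list include 1 gene whose values are not reported here. Irf1, Irf7, Irf9, Gbp2, Gbp3, Gbp4, Slfn1 and Tlr7 were added after their values were seen. The list of non-overlapping genes is complete.

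Alternatives were DESeq2 1.42.0, limma-voom (limma 3.58.1), RLE and upper-quartile normalization, no low-count filter, at least 10 counts in every library, no fold threshold, each library left out, and the replicate number as a block. Promoter letters were searched in RefSeq promoters. Of the identifiers of the 47 genes, 47 were found in GENCODE M21 and 39 had the same start and end. Another gene overlaps 18 of them.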

Additional observations from a re-analysis of the deposited data

How the results depend on the processing

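Depth limits the low genes: 8 of the 47 were too low to test. Over all genes 212 DEGs were called, 357 with DESeq2, 507 without the fold threshold and 114 to 229 with a library left out (128, 114 and 120 without WT replicates 1, 2 and 3). Of the 39 tested interferon-stimulated genes 2 were called. The count was 1 when at least 10 counts were required in every library, since Cxcl10 was then not tested, 4 without the fold threshold (Bst2 and Samhd1 added), 1 with the replicate block and 1 to 2 with a library left out (1 without mTOR-/- replicate 3 or any 1 of the WT libraries). Of the other pathway genes 2 were called, 1 with limma-voom, 5 without the fold threshold and 1 to 3 with a library left out (1 without mTOR-/- replicate 1, mTOR-/- replicate 3 or WT replicate 2, 3, with Ikbke, without mTOR-/- replicate 2, and 2, with Tlr7 in place of Gbp6, without WT replicate 1). The median log2 fold change of the 39 genes lay between 0.07 and 0.17 with a library left out, and their number with non-overlapping groups between 14 and 19 against 13, since smaller groups overlap less.

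The replicate numbers did not pair the libraries (correlations of same-numbered deviations -0.076, -0.025 and -0.061). With the replicate number as a block Mx1 stayed called, while the adjusted p was 0.0590 for Cxcl10, 0.0757 for Bst2, 0.0770 for Tyk2, 0.127 for Irf4 and 0.0689 for Ikbke. Of 244 alternative values for the 19 named genes, 221 kept direction and side of the threshold, 12 fell short of it, 1 passed it (Ifitm1 with DESeq2) and 10 changed sign, all with a library left out and all for genes whose groups overlap. The log2 fold change then ran from -0.85 to 0.073 for Gbp7, from -0.0074 to 0.21 for Irgm1, from -0.050 to 0.23 for Usp18, from -0.018 to 0.19 for Eif2ak2, from -0.14 to 0.24 for Igtp and from -0.31 to 0.65 for Ifit2. Without a change of sign it ran from 0.51 to 1.39 for Gbp5, from 0.24 to 1.07 for Slfn5 and from -1.42 to -0.16 for Oas3, which was -1.48 with limma-voom. Where a left-out library ended a call, the cause was not tested.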
